A study of Mus musculus with 6 samples.

Results

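The subunits of Polycomb repressive complex 2 (PRC2) were examined in WT cells and IG27 cells, that is, in immortalized mouse glial cells without and with the histone mutant H3.3K27M. The 10 genes were taken by name: the catalytic subunits *Ezh1* and *Ezh2*, the core subunits *Eed* and *Suz12*, the histone-binding subunits *Rbbp4* and *Rbbp7*, and the accessory subunits *Jarid2*, *Mtf2*, *Phf1*, and *Phf19*. Probes were assigned to them through the RefSeq accession printed on the array design, which gave 19 probes for the 10 genes, of 32994 probes named for 22911 genes. All 10 genes and all 19 probes passed the filter on dim signals, and they are 10 of the 14898 genes tested.

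PRC2 is the enzyme complex that adds methyl groups to lysine 27 of histone H3, and the trimethylated form of that lysine, H3K27me3, marks silent developmental genes. EZH1 or EZH2 carries out the methylation, but only when bound to EED and SUZ12, and RBBP4 or RBBP7 binds the histone. Accessory subunits then guide the complex to chromatin in 2 alternative forms, one with a Polycomb-like protein (PHF1, MTF2, or PHF19), called PRC2.1, and one with JARID2 and AEBP2, called PRC2.2. In diffuse midline gliomas the histone mutant H3.3K27M, with methionine in place of that lysine, binds PRC2 and lowers H3K27me3 across the genome. An array measures the RNA of the subunits, not their protein or the activity of the complex.

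The WT group was OS3 cells, an SV40-immortalized glial line from the brain of a male mouse (strain C3H in the labels, newborn C3H/HeN in the methods), carrying the empty vector, and the IG27 group was OS3 cells carrying pcDNA3.1 with mouse *H3f3a* cDNA bearing K27M. Each group had 3 dishes grown for 2 days in the same medium with serum, insulin, and glucose, and both carry the SV40 immortalization, so that the WT label means an unmutated histone and not a normal cell. The methods state that transfected cells were selected with a drug and grown as clones, and whether the arrayed cells of a group were 1 clone is not given in the sources used here. If they were, the dishes sample 1 line per group. The p-values measure the spread between dishes, and whether this includes a spread between clones is not known. A difference that comes from selecting a clone cannot be told apart from one that comes from the mutant.

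Each dish was hybridized to 1 single-color Agilent array of the same slide, and intensities are given as log2 of the processed signal minus the 75th percentile of that array, so that 0 is the 75th percentile (normalized log2 intensity). The scanner output was complete for 5 arrays, which had 33294 to 34633 of 56605 probes flagged as well above background, whereas that of IG27 replicate 2 stops after 285 of 62976 spots, and its values came from the deposited value table. Arrays correlated at r = 0.994 to 0.997 within the groups and at 0.902 to 0.905 between them, across probes. On the slide, WT replicate 2 shared a row with the IG27 arrays, while the other WT arrays lay in a row of their own. The plasmid carries mouse cDNA, and the sequences of the 3 *H3f3a* probes are not given in the sources used here. Whether these probes read the transgene, the endogenous gene, or both is therefore not known, and they do not check the labels. Their log2 fold changes were 0.17, -0.26, and -0.20, and the second of these passed the test at the level of probes (adjusted p = 0.0314).

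Glial markers were present in both groups: of 12 markers, 10 were well above background in the WT cells and 11 in the IG27 cells. *Slc1a3*, a glutamate transporter of astrocytes, was not well above background on any WT array. The summed linear signal of the list, in multiples of the 75th percentile, ran from 327 to 344 in WT and from 259 to 273 in IG27 cells. The markers of fibroblasts summed to 126 to 129 in WT and 64.3 to 69.6 in IG27 cells, those of neurons to 17.5 to 19.9 and 9.97 to 11.02, those of microglia to 2.17 to 2.42 and 0.960 to 1.27, and those of endothelial cells to 0.168 to 0.187 and 2.60 to 2.66. *Rbfox3* and *Syt1* (neurons), *Cx3cr1* and *Ptprc* (microglia), *Cdh5* and *Cldn5* (endothelial cells), and *Lum* (fibroblasts) were not well above background on any complete array. Within these lists single markers went different ways, where 70.5% of all genes were called. Of 12 glial markers tested, 5 were higher and 4 lower, although their sum was lower. *Gfap*, named after its values were seen, was lower by its brightest probe (-1.07), which also enters the sum. Its other probe was called higher (0.19). Of 3 tested genes each, neurons had 1 higher and 1 lower, microglia 2 higher and 1 lower, and fibroblasts 1 higher and 2 lower. Named after their values were seen, *Tubb3* fell while *Map2* rose among the neuronal markers, *Col1a1* and *Pdgfrb* fell while *Dcn* rose among those of fibroblasts, and the endothelial sum rose through *Kdr*, while *Pecam1* was lower. *Kdr* and *Dcn* were well above background on no WT array. *Map2* and the microglial marker *Aif1*, which was called higher, were so on 1 of 3 WT arrays. These genes passed the filter on dim signals through the IG27 arrays only. These sums moved together with the groups in every comparison given here, and their part in the changes of the PRC2 genes was not tested.

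The transcripts of PRC2 changed in both directions between the groups, and by small amounts. Of the 10 genes, 3 were higher in IG27 cells (*Ezh1*, *Suz12*, and *Rbbp4*), 3 were lower (*Ezh2*, *Rbbp7*, and *Jarid2*), and 4 did not pass the test (*Eed*, *Mtf2*, *Phf1*, and *Phf19*), with limma and an adjusted p under 0.05. Among all genes tested, 70.5% passed, with 30.5% higher and 40.0% lower, so that 6 of 10 is near the background. The called changes ran from 1.23-fold to 1.58-fold, and none of the 10 genes changed by 2-fold or more, a size that 23.1% of all genes reached together with the test. The median log2 fold change of the 10 genes was 0.14, beside -0.07 for all genes, and the median size of change without its sign was 0.37, beside 0.47. Ranked by that size among all genes, the 10 genes lay between percentile 6.05 (*Phf19*) and percentile 62.2 (*Jarid2*). In these cultures fewer expressing cells and less RNA per cell cannot be told apart.

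**Figure D1:**
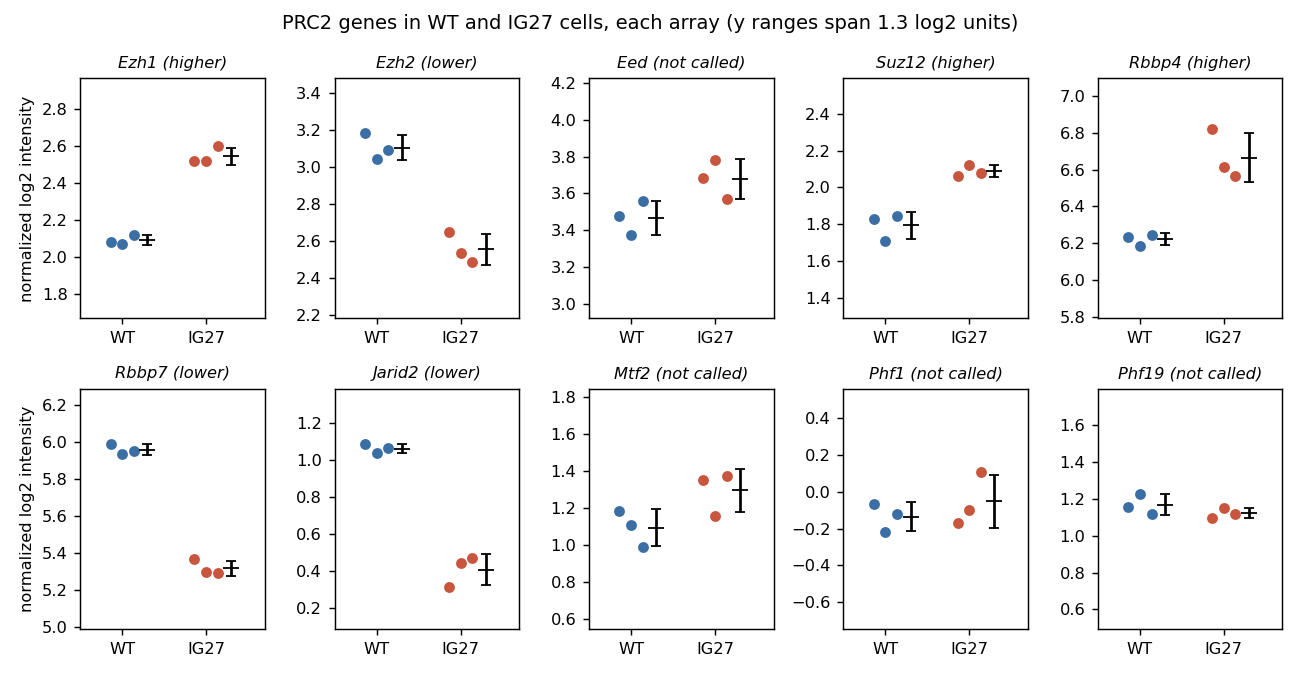
Normalized log2 intensity (y axis, 0 is the 75th percentile of the array) of the 10 PRC2 genes in each WT array (blue) and IG27 array (red), with the mean and SD of the 3 arrays of a group in black. Every panel spans 1.3 log2 units, and the groups are apart in *Ezh1*, *Suz12*, *Rbbp4*, and *Eed* (IG27 above) and in *Ezh2*, *Rbbp7*, and *Jarid2* (IG27 below).

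The 2 catalytic subunits moved in opposite directions. *Ezh1*, whose product is the weaker methyltransferase and is typical of cells that have left the cell cycle, read 2.08, 2.07, and 2.12 in WT replicates 1 to 3 and 2.52, 2.52, and 2.60 in IG27 replicates 1 to 3. Every IG27 array was above every WT array. The means were 2.09 ± 0.03 (SD, n = 3) and 2.55 ± 0.05 (SD, n = 3), a log2 fold change of 0.45 with a standard error of 0.05 and a 95% confidence interval of 0.34 to 0.57, which is 1.37-fold higher in IG27 cells (adjusted p = 0.000237). The gene has 1 probe on the array.

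*Ezh2*, the main methyltransferase of dividing cells, read 3.18, 3.05, and 3.09 in WT and 2.65, 2.54, and 2.48 in IG27 arrays. All IG27 arrays were below all WT arrays. The means were 3.11 ± 0.07 and 2.56 ± 0.08 (SD, n = 3 each), a log2 fold change of -0.55 with a standard error of 0.07 and an interval of -0.71 to -0.39 (adjusted p = 0.000416). This is 1.47-fold lower, or 68.3% of the level in WT cells.

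The 5 probes of *Ezh2*, all designed for the same RefSeq transcript, gave changes of different size. The brightest, which stands for the gene, gave -0.55, and the other 4 gave -0.62, -0.33, -0.18, and -0.04. Fitted over all 34059 tested probes, of which 64.2% were called, the first 3 of these values were called lower (adjusted p = 0.000706, 0.000326, and 0.0160), while the probes at -0.18 and -0.04 were not (adjusted p = 0.196 and 0.796). The probe at -0.04 read 2.38, 2.69, and 2.68 in WT and 2.61, 2.42, and 2.61 in IG27 arrays, so that its groups overlapped. With the mean of the 5 probes in place of the brightest, the log2 fold change of *Ezh2* was -0.34 (adjusted p = 0.0012). The probes' changes thus ran further apart than their standard errors of 0.07 to 0.11. The accessions do not say which exons the probes cover.

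Because these paralogs stand in for each other in the complex, their difference was taken within each array, where any factor common to the whole array cancels. A level of 1 probe cannot be set against that of another, so only the change of the difference is read. Relative to its WT mean, *Ezh2* minus *Ezh1* was 0.08, -0.04, and -0.04 in WT and -0.89, -0.998, and -1.13 in IG27 arrays. The mean change was -1.01 log2 units, with SDs of 0.07 in WT and 0.12 in IG27, so the groups lay far apart for their spread. The exact permutation test, two-sided, gave p = 0.1, the smallest that 3 against 3 arrays allow, and 0.25 after adjustment over the 5 pairs compared. With the mean of each gene's probes the change was -0.80, and with each array left out in turn it ran from -1.06 to -0.94.

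The promoters of both genes are shown because the pair moved apart. The last 100 bases before the annotated start of transcription are given 5′ to 3′ on the strand of the gene, from the RefSeq annotation of GRCm38.p6, with each CCAAT box, the site read by the factor NF-Y, in capitals (CCAAT, or ATTGG where it lies on the opposite strand).
*Ezh1*, chr11:101226464-101226563, minus strand: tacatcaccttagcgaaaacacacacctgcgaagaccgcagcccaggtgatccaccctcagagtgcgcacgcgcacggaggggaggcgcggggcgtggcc
*Ezh2*, chr6:47595031-47595130, minus strand: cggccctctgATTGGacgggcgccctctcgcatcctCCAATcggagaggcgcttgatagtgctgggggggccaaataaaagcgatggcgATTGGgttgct
In the 250 bases before the start, the *Ezh2* promoter holds 3 CCAAT boxes, all of them within the bases shown, and the *Ezh1* promoter holds 0. Of 32851 mouse promoters of this length, 33.85% hold at least 1 and 2.79% hold 3 or more. These matches describe the letters only.

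The 2 core subunits without catalytic activity both read higher in IG27 cells, and 1 of them passed the test. *Suz12*, the zinc-finger subunit on which the others assemble, read 1.83, 1.71, and 1.84 in WT and 2.06, 2.12, and 2.08 in IG27 arrays, with no overlap. The means were 1.79 ± 0.07 and 2.09 ± 0.03 (SD, n = 3 each), a log2 fold change of 0.29 with a standard error of 0.06 and an interval of 0.16 to 0.43, or 1.23-fold higher (adjusted p = 0.00345). Its second, dimmer probe read -0.37, -0.38, and -0.44 in WT and 0.12, -0.00, and -0.15 in IG27 arrays, a change of 0.39 that was also called (adjusted p = 0.00668).

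*Eed*, whose product reads H3K27me3 and stimulates the enzyme, read 3.48, 3.37, and 3.56 in WT and 3.68, 3.78, and 3.57 in IG27 arrays. The highest WT array and the lowest IG27 array nearly touched, without overlap. The means were 3.47 ± 0.09 and 3.68 ± 0.11 (SD, n = 3 each), and the log2 fold change of 0.21, with a standard error of 0.08 and an interval of 0.02 to 0.40, missed the threshold (adjusted p = 0.052). Under quantile normalization the change was 0.37 and passed the test (adjusted p = 0.00438). Including *Eed*, the groups did not overlap in 7 of the 10 genes, 4 of them higher and 3 lower in IG27 cells, beside 75.7% of all genes tested, with 33.4% higher and 42.4% lower.

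The histone-binding subunits *Rbbp4* and *Rbbp7*, close paralogs that also serve in several other chromatin complexes, again moved apart. *Rbbp4* read 6.23, 6.19, and 6.25 in WT and 6.82, 6.61, and 6.57 in IG27 arrays. All IG27 arrays were higher, and IG27 replicate 1 stood above the other IG27 arrays. The means were 6.22 ± 0.03 and 6.67 ± 0.13 (SD, n = 3 each), a log2 fold change of 0.44 with a standard error of 0.08 and an interval of 0.26 to 0.63, or 1.36-fold higher (adjusted p = 0.00236).

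*Rbbp7* read 5.99, 5.93, and 5.95 in WT and 5.36, 5.29, and 5.29 in IG27 arrays. The distance between the groups was many times the spread within them. The means were 5.96 ± 0.03 and 5.32 ± 0.04 (SD, n = 3 each), a log2 fold change of -0.64 with a standard error of 0.05 and an interval of -0.76 to -0.53, or 1.56-fold lower (adjusted p = 4.58e-05). The second probe of *Rbbp7* fell further, from 5.25, 5.14, and 5.23 in WT to 4.30, 4.31, and 4.43 in IG27 arrays, a change of -0.86 (adjusted p = 6.95e-05).

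Relative to its WT mean, *Rbbp4* minus *Rbbp7* was -0.02, -0.01, and 0.03 in WT and 1.19, 1.05, and 1.01 in IG27 arrays. The mean change was 1.09 log2 units, with SDs of 0.03 and 0.09, and each of the 3 IG27 arrays showed it. The exact permutation test again gave its smallest possible p of 0.1 (0.25 over the 5 pairs), and leaving out single arrays moved the change only between 1.03 and 1.12.

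**Figure D2:**
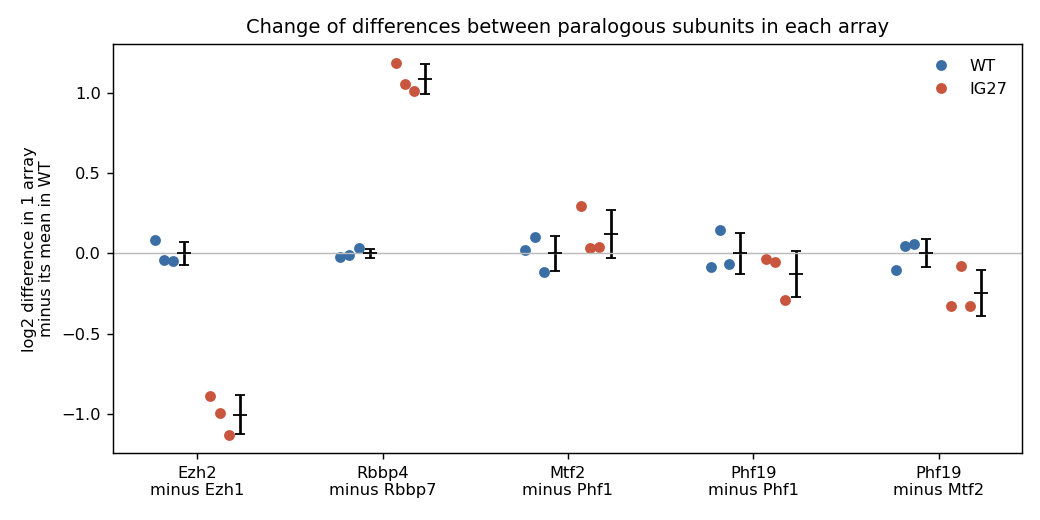
Difference between the normalized log2 intensities of 2 paralogous subunits within an array, minus the mean of that difference in the WT arrays (y axis, log2 units), for 5 pairs, with WT arrays in blue, IG27 arrays in red, and the mean and SD of each group in black. The IG27 arrays are shifted to about -1 for *Ezh2* minus *Ezh1* (mean -1.01) and upward for *Rbbp4* minus *Rbbp7* (mean 1.09), while the 3 pairs of Polycomb-like genes stay within 0.33 of the WT mean.

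The promoters of *Rbbp4* and *Rbbp7*, the other pair that moved apart, are shown in the same way.
*Rbbp4*, chr4:129335371-129335470, minus strand: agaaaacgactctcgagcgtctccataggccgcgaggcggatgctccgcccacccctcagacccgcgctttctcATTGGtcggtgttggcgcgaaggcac
*Rbbp7*, chrX:162760272-162760371, plus strand: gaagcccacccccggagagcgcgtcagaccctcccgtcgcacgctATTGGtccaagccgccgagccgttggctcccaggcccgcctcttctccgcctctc
Each of them holds 1 CCAAT box in its 250 bases, on the opposite strand. Of the 12 annotated promoters of the 10 genes, 6 hold a CCAAT box and 8 hold the GC box GGGCGG, read by SP1. Of all promoters of this length, 33.85% and 32.74% hold them on either strand. All promoters had medians of 6 CpG and 52.4% GC, beside 30 CpG and 67.6% GC for *Rbbp4* and 34 CpG and 76.4% GC for *Rbbp7*, so the sets differ in GC. An E2F site (searched as TTTCCCGC, TTTGGCGC, TTTCGCGC, or TTTGCCGC on both strands) occurred before *Suz12* and *Phf19* and before 1.86% of all promoters, and it was not found in this window of *Ezh1*, *Ezh2*, *Eed*, *Rbbp4*, *Rbbp7*, *Jarid2*, *Mtf2*, or *Phf1*.

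Among the accessory subunits of the 10 genes, *Jarid2* of PRC2.2 was lower and the Polycomb-like genes of PRC2.1 did not pass the test. This split does not extend to all partners of PRC2.1, since *Epop* was called lower and *Lcorl* higher, as given below. The difference between the forms was not itself tested. *Jarid2*, the subunit of PRC2.2 that helps to recruit and stimulate the enzyme, read 1.09, 1.04, and 1.07 in WT and 0.31, 0.45, and 0.47 in IG27 arrays. The WT arrays lay within 0.05 of each other and all IG27 arrays were well below them. The means were 1.06 ± 0.03 and 0.41 ± 0.09 (SD, n = 3 each), a log2 fold change of -0.66 with a standard error of 0.06 and an interval of -0.80 to -0.51, which is 1.58-fold lower (adjusted p = 0.000108). A second probe, designed for another transcript of *Jarid2*, was much dimmer and read -1.85, -1.90, and -1.98 in WT and -2.65, -2.57, and -2.12 in IG27 arrays. It was also lower, by a log2 fold change of -0.54 (adjusted p = 0.0181).

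None of the 3 Polycomb-like genes of PRC2.1 passed the test. *Mtf2*, the family member prominent in embryonic stem cells, read 1.18, 1.11, and 0.99 in WT and 1.35, 1.16, and 1.37 in IG27 arrays, and IG27 replicate 2 lay within the WT range. Its log2 fold change was 0.20 with a standard error of 0.08 and an interval of -0.00 to 0.41 (adjusted p = 0.0703), and its other probes gave 0.20 and 0.09 without passing the test. Without IG27 replicate 2 the change of *Mtf2* was 0.27 and passed (adjusted p = 0.0280), and under quantile normalization it was 0.28 and passed (adjusted p = 0.0214).

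*Phf1*, another Polycomb-like gene, read -0.06, -0.22, and -0.12 in WT and -0.17, -0.10, and 0.11 in IG27 arrays. The ranges overlapped, and the log2 fold change of 0.08 had an interval of -0.13 to 0.30 (adjusted p = 0.434), so a change larger than 1.23-fold lay outside the interval. *Phf19*, the third member, read 1.16, 1.23, and 1.12 in WT and 1.10, 1.15, and 1.12 in IG27 arrays. The groups overlapped here too, and the log2 fold change of -0.05, with an interval of -0.17 to 0.08 (adjusted p = 0.454), left out changes beyond 1.12-fold. The sign of *Phf19* turned under quantile normalization, where its log2 fold change was 0.04.

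Within the arrays, the differences among the 3 Polycomb-like genes changed by 0.25 or less. *Mtf2* minus *Phf1* changed by 0.12 (exact permutation p = 0.4, 0.5 over the 5 pairs), *Phf19* minus *Phf1* by -0.13 (exact permutation p = 0.6, 0.6 over the pairs), and *Phf19* minus *Mtf2* by -0.25 (exact permutation p = 0.2, 0.333 over the pairs). Leaving out single arrays moved these changes between 0.03 and 0.17, between -0.17 and -0.04, and between -0.33 and -0.21. With normexp correction of median signals and quantile normalization on the 5 complete arrays, *Mtf2* minus *Phf1* changed by 0.29 at the smallest possible exact permutation p of 0.1, and *Phf19* minus *Phf1* by -0.0035. Each of these pairs shares a gene with both others.

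**Figure D3:**
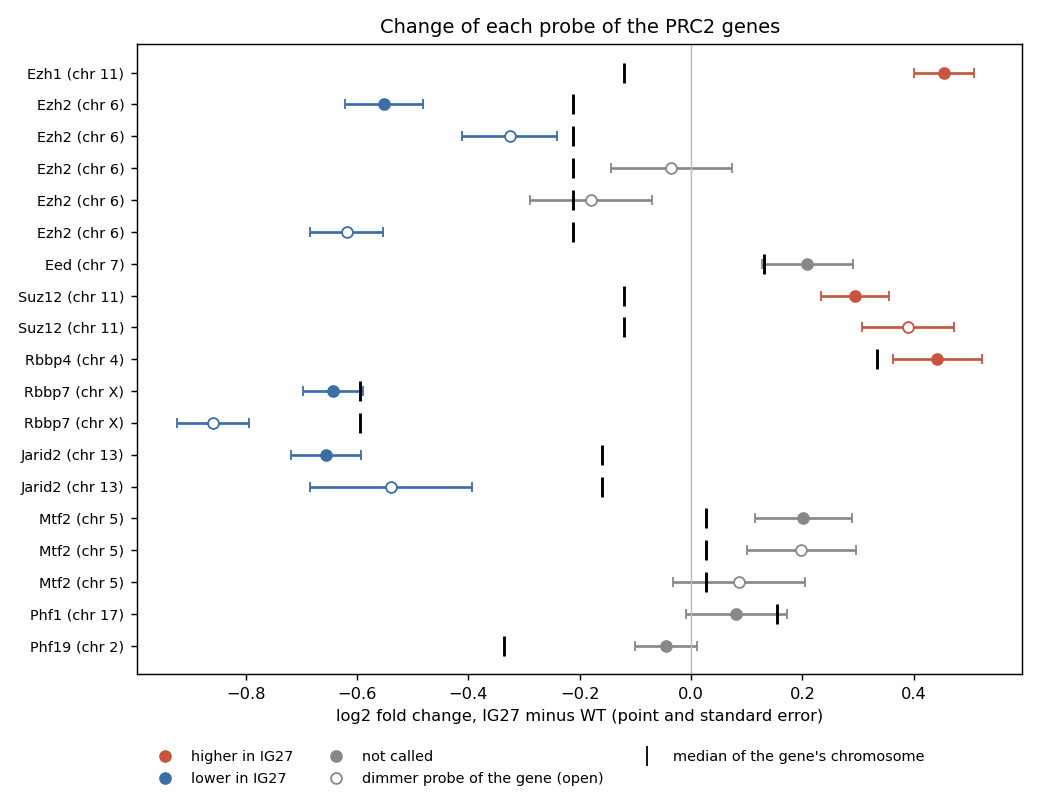
Log2 fold change (IG27 minus WT, x axis) with its standard error for each of the 19 probes of the 10 PRC2 genes, filled for the brightest probe of a gene and open for dimmer ones, red where called higher, blue where called lower, and gray where not called, with a black tick at the median log2 fold change of all tested genes of the same chromosome. The 5 *Ezh2* probes run from -0.62 to -0.04. The brightest probes of *Rbbp7* and *Rbbp4* lie close to the medians of chromosomes X (-0.59) and 4 (0.33). The second *Rbbp7* probe lies lower, at -0.86. The probes of *Ezh1*, *Suz12*, and *Jarid2* lie away from the medians of their chromosomes.

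The comparison was also made within the row of the slide that holds both groups, that is, with WT replicate 2 alone against the 3 IG27 arrays, where the single WT array is taken to vary like the others. All 6 called genes kept their call and direction there, in a fit that called 60.0% of all genes. The log2 fold changes were 0.48 for *Ezh1* (adjusted p = 0.00748), 0.38 for *Suz12* (adjusted p = 0.0130), and 0.48 for *Rbbp4* (adjusted p = 0.0287). They were -0.49 for *Ezh2* (adjusted p = 0.0120), -0.62 for *Rbbp7* (adjusted p = 0.0031), and -0.63 for *Jarid2* (adjusted p = 0.00557). *Eed* at 0.30, *Mtf2* at 0.19, *Phf1* at 0.17, and *Phf19* at -0.11 did not pass within the row.

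The position of the genes was set beside their changes, because whole chromosomes differed between the groups. The 14898 tested genes had a median log2 fold change of -0.59 on chromosome X, which carries *Rbbp7* (-0.64), and of 0.33 on chromosome 4, which carries *Rbbp4* (0.44). By their brightest probes, *Rbbp7* differed from the median of its chromosome by -0.05 and *Rbbp4* by 0.11. The other 4 called genes kept larger distances by that measure. These were 0.58 for *Ezh1* and 0.42 for *Suz12* on chromosome 11, -0.34 for *Ezh2* on chromosome 6, and -0.50 for *Jarid2* on chromosome 13. For *Ezh2* and *Rbbp7* the distance depended on the probe. The mean of the 5 *Ezh2* probes changed by -0.34, beside a median of -0.21 on chromosome 6. Its probes at -0.18 and -0.04 lay above that median. The second probe of *Rbbp7*, at -0.86, lay further below the median of chromosome X.

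Closer in, the 20 tested genes nearest to each member, 10 on either side, were taken. Those around *Ezh2* had a median log2 fold change of -0.54, with 13 called lower and 3 called higher, beside -0.55 for *Ezh2* itself. Those around *Rbbp4* had a median of 0.31 (14 higher, 2 lower), and those around *Rbbp7* a median of -0.30 (5 higher, 12 lower). The neighbors of *Ezh1* had a median of -0.11 and those of *Suz12* of 0.03, beside rises of 0.45 and 0.29 for the genes themselves, and those of *Jarid2* had a median of -0.17 (3 higher, 9 lower). Around *Phf19*, at -0.05, the median was -0.47 with 14 genes lower, and around *Mtf2*, at 0.20, it was -0.25 with 11 lower. Called lower were 40.0% of all genes, beside 49.79% on chromosome 6 (*Ezh2*), 63.35% on X (*Rbbp7*), 57.96% on 2 (*Phf19*), and 33.48% on 5 (*Mtf2*). Called higher were 30.5% of all genes, beside 58.37% on chromosome 4 (*Rbbp4*). The part of chromosome position in the changes of the PRC2 genes was not tested.

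Among the other partners of PRC2, 6 of 7 genes were tested, of which 1 was higher, 2 were lower, and 3 did not pass. That is 50% called, beside 70.5% of all genes. *Epop*, which joins PRC2.1 to the elongin proteins, read 2.99, 3.03, and 3.01 in WT and 2.23, 2.12, and 2.07 in IG27 arrays. That was a log2 fold change of -0.87 with a standard error of 0.06, or 1.83-fold lower (adjusted p = 2.67e-05). *Aebp2*, the partner of *Jarid2* in PRC2.2, read 1.001, 0.88, and 0.91 in WT and 0.69, 0.71, and 0.61 in IG27 arrays, a log2 fold change of -0.26 (adjusted p = 0.00606). The second probe of *Aebp2* gave -0.06, and the call of *Aebp2* was lost with the mean of its probes (-0.16, adjusted p = 0.0514), with the slide row as a block (-0.21, adjusted p = 0.0705), and within the slide row (-0.21, adjusted p = 0.0882).

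*Lcorl*, a gene that also encodes a PRC2.1 partner, read -1.96, -2.14, and -2.20 in WT and -0.75, -0.84, and -0.65 in IG27 arrays, a log2 fold change of 1.35 (adjusted p = 2.12e-05). Its 3 probes ran from 0.03 to 1.35 and 1 of them was called, so the rise holds for 1 probe. *Lcor* at -0.10 and the elongin genes *Elob* at -0.10 and *Eloc* at -0.06 did not pass. *Ezhip*, whose product inhibits PRC2 through a sequence that resembles the K27M histone tail, was not tested, since its probe was well above background on 2 of 3 WT arrays and 1 of 2 complete IG27 arrays.

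The enzymes that remove the mark or compete for the same lysine were set beside the subunits. Of 4 genes 2 were higher and 2 did not pass, that is, 50% called beside 70.5% of all genes. *Kdm6b*, an H3K27 demethylase, read 0.60, 0.58, and 0.56 in WT and 1.79, 1.73, and 1.64 in IG27 arrays, a log2 fold change of 1.14 with a standard error of 0.06, or 2.21-fold higher (adjusted p = 7.47e-06). *Ep300*, an acetyltransferase of lysine 27, was higher by 0.46 (adjusted p = 0.00139) with both of its probes called. The demethylase *Kdm6a* at -0.15 (adjusted p = 0.218) and the acetyltransferase *Crebbp* at -0.00 (adjusted p = 0.9998) did not pass, and *Crebbp* ran from 2.32 to 3.73 within the WT arrays. Without WT replicate 1, the lowest of them, *Crebbp* was lower by a log2 fold change of -0.40 (limma, adjusted p = 0.0369). Without WT replicate 2, the highest, its change was 0.30 and did not pass (limma, adjusted p = 0.402). The other probe of *Crebbp* gave 0.14 and was not called.

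Of 4 genes for CBX proteins, the subunits of PRC1 that bind H3K27me3, 2 were higher and 2 did not pass, again 50% beside 70.5% of all genes. *Cbx7* rose by 1.23 log2 units (adjusted p = 5.46e-06) and *Cbx6* by 0.76 (adjusted p = 0.000213). *Cbx6*, *Cbx7*, and *Ep300* lie on chromosome 15, where the median log2 fold change was 0.30 and 54.5% of genes were called higher. *Kdm6b* lies on chromosome 11, where the median was -0.12. The part of chromosome position in these changes was not tested. *Cbx2* at -0.06 and *Cbx8* at -0.01 did not pass.

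**Figure D4:**
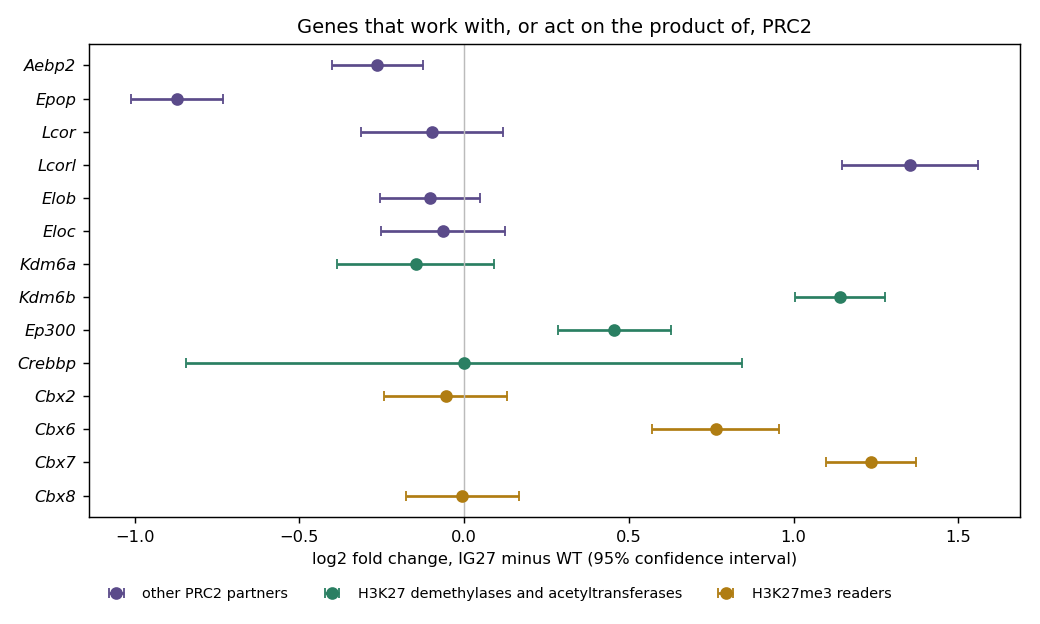
Log2 fold change (IG27 minus WT, x axis) with its 95% confidence interval for the tested partners of PRC2 (purple), the demethylases and acetyltransferases of H3K27 (green), and the CBX readers of H3K27me3 (gold). *Lcorl*, *Cbx7*, and *Kdm6b* lie above 1, *Epop* lies at -0.87, and 7 of the 14 intervals include 0.

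*Rbbp4* and *Rbbp7* are also subunits of the deacetylase complexes NuRD and SIN3, of the chromatin assembly factor CAF-1, and of NURF. Of 19 further genes of these complexes 18 were tested. By their brightest probes 2 were higher, 9 lower, and 7 not called, with a median log2 fold change of -0.22. Averaging the probes of each gene instead gave 5 higher and 7 lower, so the split by direction depended on the choice of probe. The CAF-1 subunit *Chaf1b* was higher by 0.38 and the deacetylase *Hdac2* by 1.03. The NuRD genes *Chd3*, a remodeler, and *Gatad2a* were lower by log2 fold changes of -2.25 (adjusted p = 3.20e-07) and -1.27 (adjusted p = 6.08e-06). *Chd3* lies on chromosome 11 (median -0.12) and *Gatad2a* on chromosome 8 (median -0.67). With 61.1% called, the list was near the 70.5% of all genes.

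*Ezh2* and *Eed* are known targets of the E2F factors, so the E2F factors and S-phase genes were counted as well. Of 26 genes tested 3 were higher, 15 were lower, and 8 did not pass, and 69.2% called is near the 70.5% of all genes, of which 40.0% were lower. The median log2 fold change of the list was -0.32, beside -0.55 for *Ezh2* and 0.21 for *Eed*. The retinoblastoma gene *Rb1* was higher by 0.41 and the replication helicase gene *Mcm3* by 0.24. *E2f4* and its dimer partner *Tfdp1* were lower by log2 fold changes of -1.35 (adjusted p = 0.00163) and -1.26 (adjusted p = 1.20e-05). Both lie on chromosome 8, where the median log2 fold change was -0.67 and 74.25% of genes were called lower.

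Genes known to be silenced by PRC2 in many cell types, other than the *Hox* clusters, were mostly dim, and 8 of 22 passed the filter on dim signals. Of these 3 were higher, 2 were lower, and 3 did not pass, with a median of 0.07, so that 62.5% were called, beside 70.5% of all genes. The transcription factor *Lhx2* was higher by 2.95 log2 units and the cell cycle inhibitor *Cdkn2b* by 0.87, while the kidney and urogenital factors *Wt1* and *Pax2* were lower by log2 fold changes of -3.43 and -3.02. *Cdkn2a*, the best known PRC2 target among cell cycle inhibitors and named here after its value was seen, stood at -0.05 (adjusted p = 0.770). Each of the 8 had a signal well above background on all 5 complete arrays, and the counts describe these 8 genes and not the list.

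**Figure D5:**
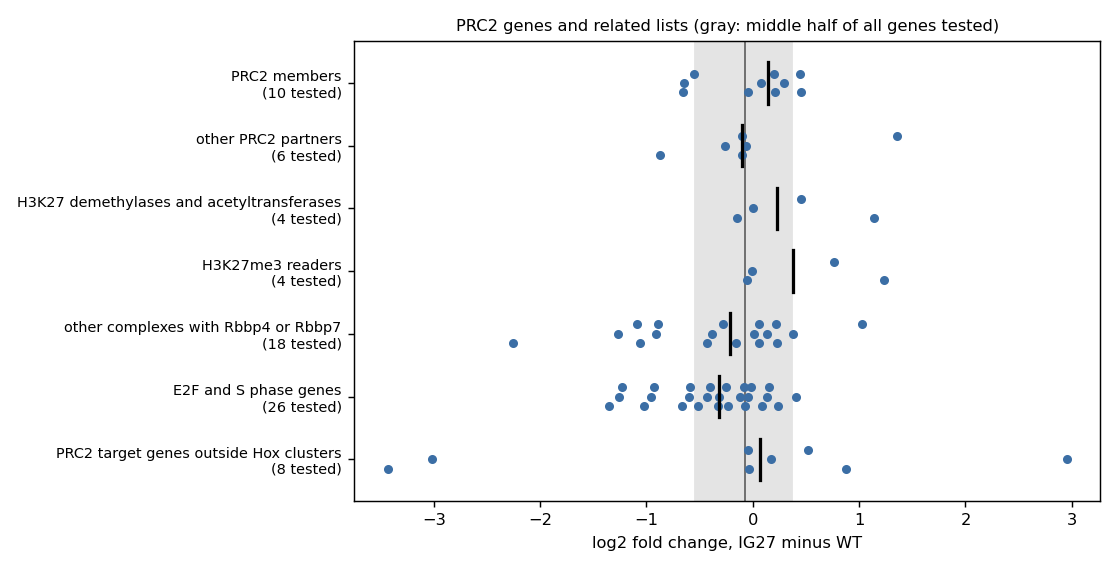
Log2 fold change (IG27 minus WT, x axis) of every tested gene (points) of the PRC2 subunits and of 6 related lists (rows), with the median of each list as a black bar and the median and middle 50% of all 14898 genes in gray (-0.54 to 0.37). The 10 PRC2 subunits all lie between -0.66 and 0.45, while the PRC2 target genes spread from -3.43 to 2.95.

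Over the 10 subunits, the log2 fold changes lay between -0.66 and 0.45, and 7 of 10 were within 0.5 of 0, beside 52.3% of all genes tested. Within the slide row that holds both groups, WT replicate 2 is the only WT array, so the values of that row rest on it. The log2 fold change of *Crebbp* there was -0.61. For this gene WT replicate 2 read 3.73, while the other WT arrays read 2.32 and 3.32.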

How the data were processed

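Total RNA of 3 WT and 3 IG27 dishes was labeled with Cy3 and hybridized to SurePrint G3 mouse arrays. The authors deposited the intensity of each spot, read with Feature Extraction (version 9.1 per the labels, 10.7.3.1 per the file headers), as a processed signal on a linear scale whose correction steps are not given in the sources used here. The deposited value table, of the same intensity, equaled the scanner output of the complete arrays (relative tolerance 1e-04), except that WT replicates 2 and 3 are exchanged, where the scanner labels were kept. IG27 replicate 2, with 285 spots in its scanner output, was taken from the table. The arrays limit the precision by their number, 3 per group.

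Here, processed signals were turned to log2 and scaled by subtracting each array's 75th percentile, spots with outlier flags (107 to 210 per array) were left out, and a probe was kept if all complete arrays of either group flagged it well above background. The brightest probe stood for a gene. Groups were compared with limma (version 3.58.1, R 4.3.3, two-sided, no block) and Benjamini-Hochberg adjustment over all 14898 genes, with a threshold of 0.05, and the fit was tested on simulated data. The methods name moderated tests at an unadjusted threshold, which is among the 18 alternatives. The members and gene lists were chosen with earlier results of these data known. Named genes were all members, all genes of the lists of partners, H3K27 enzymes, and readers (1 gene is not reported here), and otherwise the 2 largest rises and 2 largest falls among called genes without overlap, with cell type markers given as counts and sums. Promoters, neighbors, and chromosome medians were examined after the data were seen, and names and promoters came from RefSeq tables of GRCm38.p6, which matched all 10 genes.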

Additional observations from a re-analysis of the deposited data

How the results depend on the processing

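The number of PRC2 genes called was 6 to 8 of 10 over 18 alternative settings. *Ezh1*, *Ezh2*, *Suz12*, *Rbbp4*, *Rbbp7*, and *Jarid2* kept their direction and their call in 18 of 18, with the highest adjusted p, 0.0287, for *Rbbp4* within the slide row. Quantile normalization, and the setting that joins normexp correction of median signals with quantile normalization on the 5 complete arrays, each called 8 genes, 5 higher and 3 lower, against 3 and 3 in the main values, and *Phf19* turned its sign there, to 0.0394 and 0.0269, without passing the test. *Eed* passed in 7 and *Mtf2* in 4 of 18 settings, among them, for *Eed*, the fits without WT replicate 3 (0.25, adjusted p = 0.0463) and without IG27 replicate 3 (0.26, adjusted p = 0.0343). The cause was not tested. Leaving out single arrays gave 6 to 7 called PRC2 genes and 9799 to 10162 called genes in all.

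Deviations of same-numbered dishes correlated at 0.01, 0.04, and 0.08, and those of other pairs at -0.09 to 0.06. With 3 dishes per group these values are close to 0 but cannot decide whether the replicate numbers pair the samples. A fit with the replicate number as a block called 10309 genes and 6 PRC2 genes, and changed no call among the 10 PRC2 genes. The slide row as a block called 8946 genes. The total number of genes called in each list stayed within 1.5 times its main value, but the split by direction moved further. Averaging the probes of each gene gave 5 higher and 7 lower for the *Rbbp4* and *Rbbp7* complexes, against 2 and 9 in the main values. Under quantile normalization the PRC2 genes called higher rose from 3 to 5. The arrays limit these values by their number, 3 per group, and the smallest change called among the 10 PRC2 genes was 1.23-fold.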
